A study of Homo sapiens with 19 samples.

Results

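Total knockdown of RBFOX2 was compared with control in HUES66, a human embryonic stem cell line, by the sequencing reads that cross splice junctions. The comparison was defined by the sample titles and holds 6 of the 19 libraries of the series, 3 of total RBFOX2 knockdown (total KD) and 3 of control. The title of the series names Cas13d, an enzyme that cuts RNA where a guide RNA pairs with it. All 6 cultures received doxycycline at 1 ug/ml for 24, 48 or 96 hr, with 1 library of each group at each time. The genotype of the controls is labelled WT and their library names hold the word empty, while the total KD libraries are labelled as an RBFOX2 total knockdown and carry the name g1. The labels give neither a guide sequence nor a clone for these cells. A further 8 doxycycline-treated libraries, 4 each of knockdown of the N-short and N-long forms of RBFOX2, entered the same fit and share its estimate of the spread.

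Control and total KD met within the same library set at 48 hr and at 96 hr only. At 24 hr the total KD library (replicate 1) and the control library (replicate 2) carry different library series in their names, 21c and 23b, so each 24 hr value below sets libraries of different sets side by side. A library titled HUES66 WT also belongs to series 21c and has the word empty in its name, but its labels give no doxycycline and no time. It may be a control of that 24 hr set; it was left out of the main comparison, and with it as a control 549 genes passed instead of 305. The labels do not say that these libraries came from separate cultures, so the p-values measure the spread between libraries. The 6 libraries held 10664259 to 14438630 junction reads, of which 97.9% to 98.2% lay on junctions annotated in GENCODE 29. HUES66 was checked against markers of pluripotent stem cells. Of 16 such markers 15 had reads, and their summed level was 5031 to 6418 junction reads per 1e6 reads (CPM) in the controls and 5635 to 7265 CPM in total KD. SOX2 was at 0 in all 6 libraries; it is a gene without introns, so junction reads cannot show it. Markers of neural, mesodermal, endodermal and trophectodermal cells summed to between 2.57 and 105 CPM per list and library. Of these lists 5 of 14, 4 of 12, 2 of 12 and 4 of 11 markers had enough reads to be tested, and none passed. Markers of fibroblasts and mesenchyme, given further below, summed to 1025 to 1243 CPM in the controls and 916.5 to 1056 CPM in total KD.

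RBFOX2 is an RNA-binding protein that recognises the motif GCAUG, most often in the introns beside an alternative exon. Bound downstream of an exon it is known to favour inclusion, and bound upstream or within the exon it is known to favour skipping. Its known target exons are often short, keep the reading frame and lie in genes of the cytoskeleton, of membrane traffic and of other splicing factors, and RBFOX2 is abundant in human embryonic stem cells.

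The sequences of exons that the results turn on are given here so that their size and frame can be read beside their values. They are written 5′ to 3′ along the transcript, taken from GENCODE 29 transcripts with positions in GRCh38, and GCATG, the DNA spelling of the RBFOX motif, is in capitals where it occurs. The following 8 exons were included less often in total KD.
GOLIM4, chr3:168040786-168040869, minus strand: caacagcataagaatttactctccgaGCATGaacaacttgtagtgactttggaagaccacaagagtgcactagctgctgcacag
EPB41, chr1:29060422-29060484, plus strand: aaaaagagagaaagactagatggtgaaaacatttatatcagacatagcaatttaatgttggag
DIAPH1, chr5:141588224-141588250, minus strand: actctgaagcggctcatggcagatgag
ENAH, chr1:225504991-225505053, minus strand: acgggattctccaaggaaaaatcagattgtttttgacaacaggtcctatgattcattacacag
ECT2, chr3:172755483-172755575, plus strand: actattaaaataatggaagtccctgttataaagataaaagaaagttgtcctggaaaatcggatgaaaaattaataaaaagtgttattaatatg
CTTN, chr11:70421470-70421580, plus strand: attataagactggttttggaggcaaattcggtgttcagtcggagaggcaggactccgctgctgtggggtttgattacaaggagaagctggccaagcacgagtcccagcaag
CLSTN1, chr1:9737498-9737554, minus strand: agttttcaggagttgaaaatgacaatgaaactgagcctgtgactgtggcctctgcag
PICALM, chr11:85978070-85978093, minus strand: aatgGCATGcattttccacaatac

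The following 3 exons were included more often.
RAPGEF2, chr4:159243774-159243791, plus strand: gaatgcactaaatctcag
PPP3CB, chr10:73439872-73439901, minus strand: ccacagttgaggctattgaggctgaaaaag
INCENP, chr11:62141500-62141511, plus strand: tgcagcttcgtc

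For APBB2 and FN1, 2 genes with a lower exon and an annotated transcript that covers the start of the next intron, its first 100 nt could be read as well. Both stretches hold TGCATG once, at bases 47 to 52 of the APBB2 intron and bases 42 to 47 of the FN1 intron, and these genes were chosen after the match was seen.
APBB2 intron, chr4:40934977-40935076, minus strand: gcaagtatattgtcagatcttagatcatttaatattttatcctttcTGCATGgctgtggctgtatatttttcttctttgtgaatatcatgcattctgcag
FN1 intron, chr2:215392831-215392930, minus strand: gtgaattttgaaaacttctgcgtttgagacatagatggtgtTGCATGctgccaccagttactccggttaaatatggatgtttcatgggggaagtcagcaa

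Within the exons themselves, GCATG on the transcribed strand was present in 2 of 69 exons that fell (GOLIM4 and PICALM) and in 664 of 6676 exons tested (9.95%). The exons that fell were shorter than the rest, as given below. The 200 nt downstream could be read from annotated transcripts for 17 of the 69 lower exons and 7 of the 20 higher ones, so a comparison of intron motifs between sets was void.

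The targeted gene was examined first. RBFOX2 (ENSG00000100320.22, minus strand of chromosome 22) had 134, 126 and 129 CPM in the controls at 24, 48 and 96 hr and 50.7, 81.1 and 81.8 CPM in total KD. The total KD libraries lay below every control library, with the 24 hr library lowest. Within the 48 and 96 hr sets the log2 ratios were -0.64 and -0.65, and the fitted log2 fold change was -0.82 (SE 0.0794, adjusted p = 8.6e-09, edgeR quasi-likelihood test with Benjamini-Hochberg adjustment). At 48 and 96 hr the total KD level was 64.2% and 63.6% of that of the control of the same set.

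Most cassette exons that changed were included less often in total KD. Of 6676 exons tested, 89 passed an adjusted p of 0.05 (1.33%), 69 with lower inclusion (1.03%) and 20 with higher inclusion (0.3%) in total KD, in 74 genes and 77 separate stretches of the genome. Inclusion is the percent of reads that join the exon to its neighbours among those and the reads that skip it. The median difference was -21.91 percentage points for the lower exons and 15.65 points for the higher ones, the mean of the differences within the 48 and 96 hr sets. The direction was the same in both sets for 88 of the 89, and in 70 the 3 control and 3 total KD libraries did not overlap, as against 9.5% of all exons tested. The count was 15 without the term for library set, and 14 by limma on the log2 ratio of inclusion to skipping reads. Without the total KD library of 48 hr it was 40, and without the control library of 96 hr it was 47.

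The exons that changed were short and mostly kept the reading frame. Their median length was 69 nt, against 106 nt for all exons tested, and 19 of 89 (21.3%) were no longer than 30 nt, against 3.15% of all. A length divisible by 3 was found in 64 of the 89 (71.9%), against 46.9% of all exons tested; it was 52 of 69 among the lower exons and 12 of 20 among the higher ones. Of the 89 exons 69 lay wholly within coding sequence (77.5%, against 59.5% of all). These shares are descriptions of the exons that passed the test and were not themselves tested.

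**Figure D1:**
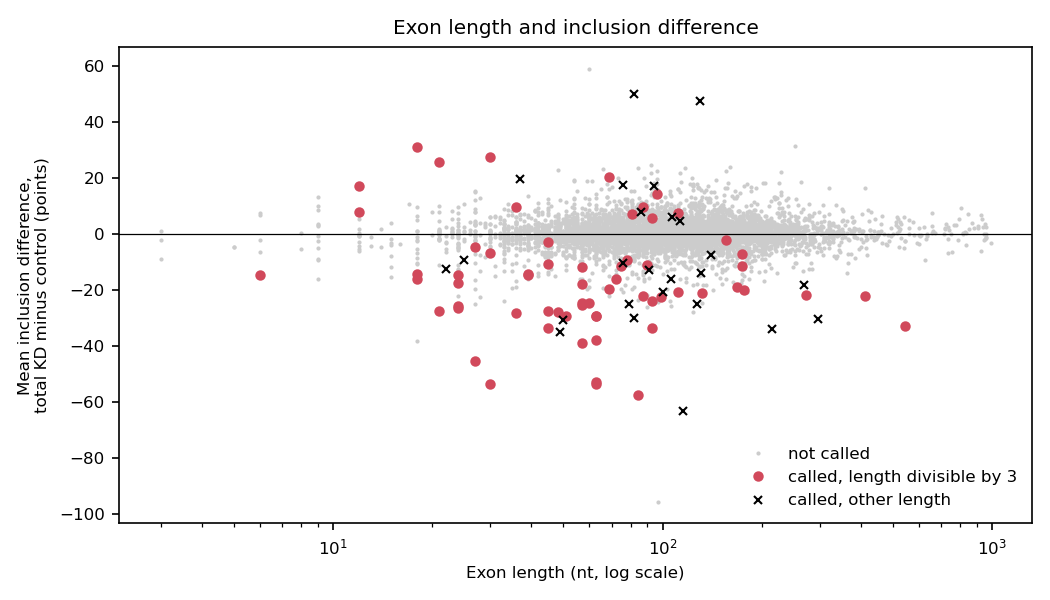
Each point is 1 cassette exon, with its length in nt on a log axis against its mean inclusion difference (total KD minus control, percentage points, mean of the 48 and 96 hr sets). Exons that passed the test are filled circles where their length is divisible by 3 and crosses where it is not; most lie below 0, and grey points show the exons that did not pass.

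Genes of the actin cytoskeleton and the membrane skeleton held the most such exons. Among tested exons of the actin and membrane skeleton list 18 fell and 2 rose (19.6%, against 1.33% of all), in 14 of the 43 genes with a tested exon. FMNL3, a formin that extends actin filaments, had the largest loss among the named exons. Its 115-nt exon was included at 95.5%, 100% and 100% in the controls at 24, 48 and 96 hr and at 47.5%, 32.5% and 40.9% in total KD, from 20 to 40 reads per library. The groups were far apart at all 3 times, and the difference was -63.3 ± 5.95 points (SD over 2 sets, adjusted p = 4.6e-06). DIAPH1, another formin, included its 27-nt exon at 78.3%, 92.1% and 74.75% in the controls and at 48.8%, 39.2% and 36.9% in total KD. The DIAPH1 exon differed by -45.3 ± 10.6 points.

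EPB41 encodes protein 4.1, which ties the spectrin and actin network to the membrane. Its 63-nt exon, which encodes part of the spectrin and actin binding region, was included at 72.2%, 65.8% and 83.3% in the controls and at 35.1%, 13.0% and 28.95% in total KD. A neighbouring 57-nt exon of EPB41 fell as well, from 48.7%, 45.8% and 57.7% to 28.4%, 10.1% and 15.6%. In both exons every total KD library was below every control library, and the differences were -53.6 ± 1.16 and -38.9 ± 4.49 points. ENAH encodes Mena, which protects growing actin filament ends. Its 63-nt exon, the one known from epithelial cells, was included at 76.85%, 83.9% and 72.1% in the controls and at 46.85%, 49.6% and 48.0% in total KD, from 417 to 572 reads per library, the deepest of the named exons.

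CTTN, the gene of the actin-binding protein cortactin, and MPRIP, which brings myosin phosphatase to actin, followed. The 111-nt exon of CTTN, which holds a repeat of the actin-binding region, was included at 25.5%, 36.0% and 24.3% in the controls and at 10.8%, 9.33% and 9.30% in total KD. The 63-nt exon of MPRIP was included at 97.0%, 97.7% and 93.6% in the controls and at 71.7%, 65.85% and 66.7% in total KD. Exons of the myosin genes MYO18A (-33.6 ± 18.5 points) and MYH10 (-6.64 ± 1.49 points for its 30-nt exon) fell as well. ECT2, which activates RhoA at the cleavage furrow, included its 93-nt exon at 93.2%, 87.4% and 88.7% in the controls and at 66.0%, 48.5% and 60.6% in total KD (-33.5 ± 7.62 points).

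In TPM1, a tropomyosin gene, exons changed in both directions. Its 76-nt exon at chr15:63061198-63061273 rose from 73.8%, 53.6% and 76.5% to 91.0%, 77.3% and 87.7%, and the following 76-nt exon at chr15:63061713-63061788 fell from 12.9%, 29.1% and 11.1% to 5.04%, 12.5% and 7.19%. In the rising exon the groups did not overlap, while in the falling one the 24 hr control (12.9%) and the 48 hr total KD library (12.5%) were close and the 96 hr control (11.1%) was below the latter. Further along TPM1, a 79-nt exon and a 127-nt exon that share their start differed by -25.0 points each over the 48 and 96 hr sets. At 24 hr the 79-nt exon had 79.7% in control and 78.3% in total KD and the 127-nt exon 65.7% and 66.3%, and the groups overlapped in the latter. ACTN1, the gene of an actin crosslinker, had the other rise in this list, from 96.4%, 85.55% and 93.8% to 99.4%, 96.05% and 97.7% for an 81-nt exon.

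**Figure D2:**
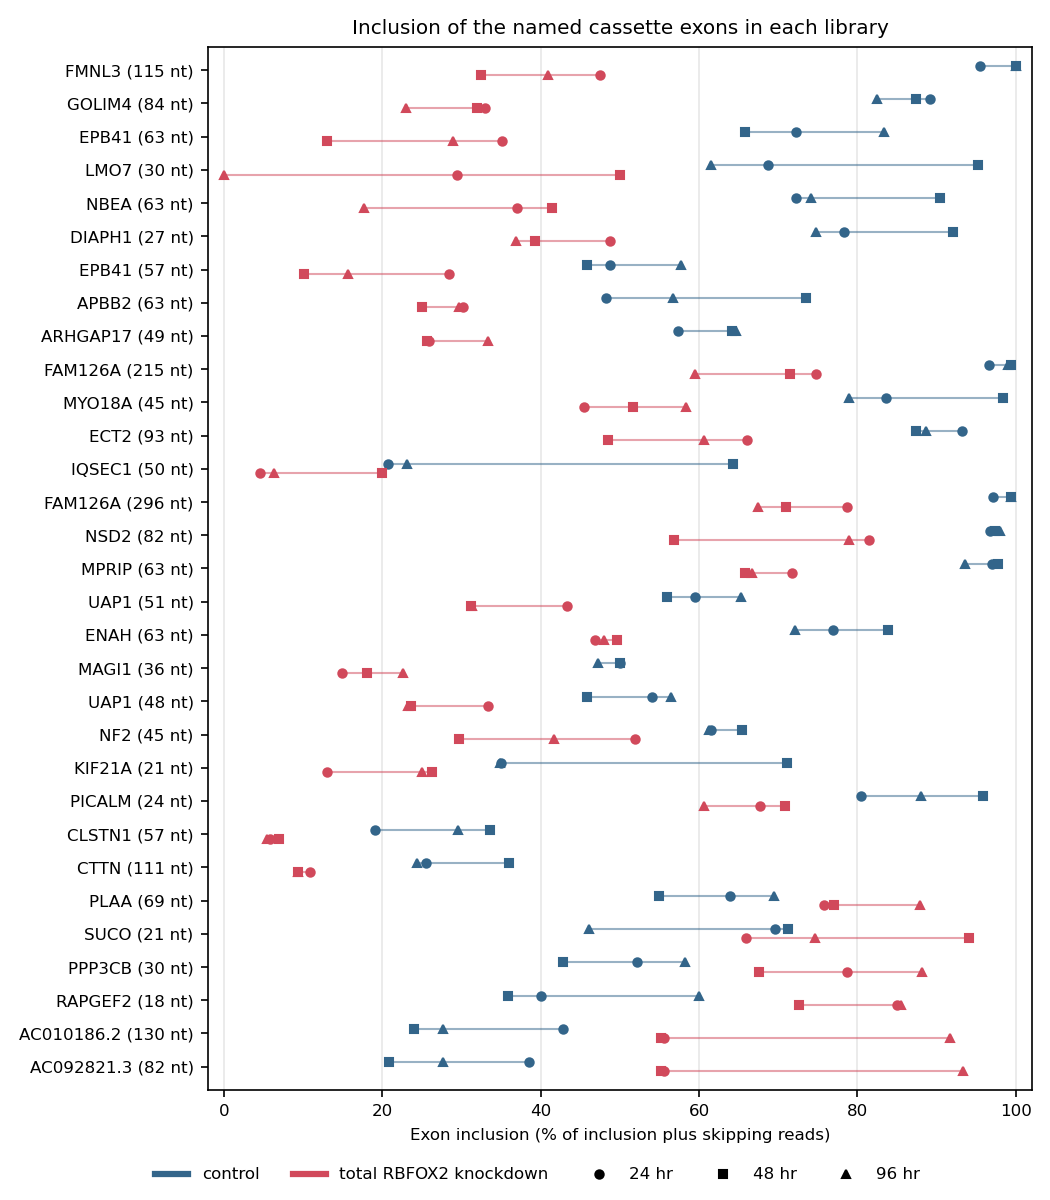
Inclusion (percent of inclusion plus skipping reads) of each named exon in the 6 libraries, controls in blue and total KD in red, with circles, squares and triangles for 24, 48 and 96 hr and lines joining the lowest and highest library of a group. Exons are ordered by their mean difference, from FMNL3 (-63.3 points) at the top to the rises at the bottom; only SUCO overlaps between the groups.

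In the secretory and endocytic traffic list 6 of 78 tested exons fell and 2 rose (10.3%, against 1.33% of all). GOLIM4, a Golgi membrane protein that cycles to endosomes, had the 84-nt exon shown above at 89.2%, 87.4% and 82.5% in the controls and at 33.0%, 31.9% and 23.0% in total KD. The difference of -57.5 ± 2.84 points (adjusted p = 4.3e-12) was nearly the same in both sets. CLSTN1 encodes calsyntenin, a cargo adaptor of kinesin in axons, and its 57-nt exon was included at 19.05%, 33.6% and 29.5% in the controls and at 5.75%, 6.94% and 5.36% in total KD. PICALM, a clathrin assembly protein, had its 24-nt exon at 80.5%, 95.8% and 88.1% in the controls and at 67.7%, 70.9% and 60.6% in total KD. In all 3 genes the groups did not overlap.

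APP, the amyloid precursor, and its relative APLP2 moved in opposite directions. The 57-nt exon of APP had 48.2%, 62.3% and 50.7% in the controls and 44.4%, 44.4% and 33.0% in total KD (-17.7 ± 0.134 points). The 36-nt exon of APLP2 rose by 9.61 ± 1.99 points, from 12.2%, 16.3% and 13.9% to 17.65%, 27.3% and 22.1%. APBB2, an adaptor of the APP family, had a difference of -37.8 ± 15.2 points in its 63-nt exon, a call that was lost without either 48 hr library or the 96 hr control. DNM2, the dynamin that severs endocytic vesicles, gained a 12-nt exon, with 87.1%, 91.3% and 83.6% in the controls and 96.15%, 97.1% and 93.9% in total KD.

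Exons of adhesion and microtubule genes changed as well. In the list of adhesion and junction scaffolds 3 of 62 exons fell (FN1, MAGI1 and DLG1) and in that of microtubules and motors 3 of 39 fell (MACF1, KIF21A and DST), where 1.03% of all exons fell. Of 75 exons in the list of kinases and signalling 1 rose (PPP3CB) and 1 fell (ARHGAP17), which is 2.67% against 1.33% of all. The FN1 exon of 273 nt, the extra domain B of fibronectin, was included at 97.9%, 98.4% and 100% in the controls and at 95.8%, 75.7% and 78.95% in total KD, so the 24 hr total KD library was close to the controls. In the 36-nt exon of MAGI1, a tight junction scaffold, inclusion was 50%, 50% and 47.25% in the 3 control libraries and between 14.9% and 22.6% after total KD. KIF21A, a kinesin, lost its 21-nt exon by -27.4 ± 24.8 points, a spread between sets as wide as the difference, and its call was lost without either 48 hr library.

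Of 79 exons in the list of splicing and RNA-binding regulators 5 fell (6.33%, against 1.03% of all), in HNRNPA1, HNRNPM, MSI1 and PTBP1. MSI1 (Musashi), a translational regulator of stem and progenitor cells, had a 57-nt exon at 85.25%, 76.4% and 78.7% in the controls and 57.1%, 46.7% and 59.0% in total KD. PTBP1, a repressor of neuronal exons, includes in its known longer forms a linker exon that was tested in 2 overlapping versions. The 78-nt version fell by -9.12 ± 1.15 points and the 57-nt version by -11.6 ± 1.79 points, and these share a junction and are not independent. In HNRNPA1 the 156-nt exon differed by -2.15 ± 0.562 points, the smallest change among the 89.

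Among exons that rose, RAPGEF2, an exchange factor for the GTPase Rap, had the largest gain in a protein-coding gene. Its 18-nt exon was included at 40.0%, 35.8% and 60.0% in the controls and at 85%, 72.6% and 85.45% in total KD (31.1 ± 8.01 points, adjusted p = 2.5e-05). PPP3CB encodes a catalytic subunit of calcineurin, and its 30-nt exon was included at 52.2%, 42.9% and 58.2% in the controls and at 78.7%, 67.6% and 88.1% in total KD. The PPP3CB call was lost without any 1 of the 4 libraries of 48 and 96 hr. INCENP, which anchors the chromosomal passenger complex, included its 12-nt exon at 4.69%, 12.8% and 6.67% in the controls and at 16.1%, 31.9% and 21.7% in total KD. In these 3 exons all total KD libraries were above all controls. The 2 largest rises, in the noncoding genes AC010186.2 and AC092821.3, share their start and rest on 12 to 29 reads per library. Their calls were lost without the 48 hr control or either 96 hr library, and that of AC010186.2 also without the 24 hr control or the 48 hr total KD library.

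In the list of genes with exons known to respond to RBFOX proteins, 12 of 72 tested exons fell (16.7%, against 1.03% of all) and none rose, in 11 of 27 genes. These were EPB41, CLSTN1, ENAH, CTTN, PICALM, KIF21A, FMNL3, ECT2, GOLIM4, APBB2 and DIAPH1. The list was drawn up with earlier results of these libraries known and is not independent evidence of the direction. The median difference over all 72 was -0.93 points, against 0.243 points over all exons tested.

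The authors' deposited event tables gave a separate account at each time. The authors' deposited table of 24 hr sets total KD against 2 control columns, 1 of which has no sample here, so its differences are not those between the 2 libraries compared above. At an adjusted p under 0.05 and a difference of at least 0.1, the authors' deposited tables of total KD against control held 29 events at 24 hr (0.0518% of those listed), 54 at 48 hr (0.118%) and 38 at 96 hr (0.0837%). Skipped exons made up 25, 44 and 30 of these (0.0674%, 0.164% and 0.111% of those listed in the authors' deposited tables), and inclusion was lower in total KD in 17, 37 and 26 of the skipped exons. Counted once each, 84 events of the authors' deposited tables passed at 1 time or more, 25 at 2 or more and 12 at all 3 times. The 12 were skipped exons of CLSTN1, CTTN, DIAPH1, ECT2, ENAH, EPB41, FAM126A, FMNL3, GOLIM4, MPRIP and NUCKS1 and a pair of mutually exclusive exons in GOLIM4. All but the NUCKS1 event were lower in total KD at every time. In the GOLIM4 pair the authors' deposited differences in inclusion were -35.5, -48.9 and -39.6 points at 24, 48 and 96 hr, total KD minus control; 0.0132%, 0.0594% and 0.0203% of such pairs were called at these times. At 24 hr the authors' deposited levels of this pair were 64.6% in the control library used here and 22.3% in total KD.

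Of the 89 exons that changed in the junction counts, 37 were also called at 1 time or more in the authors' deposited tables. The TPM1 exons described above also appear in the authors' deposited tables as a mutually exclusive pair, with differences of 10.9 points at 24 hr, 18.9 points at 48 hr and 7.3 points at 96 hr, the last with an adjusted p of 0.291. The skipped exon of CBWD5 was called higher in the authors' deposited tables by 56.4 points at 48 hr and 64.0 points at 96 hr. CBWD5 belongs to a family of near-identical copies, so its reads cannot be assigned with certainty.

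At the level of whole genes, 305 of 13393 genes passed (2.28%), 139 higher (1.04%) and 166 lower (1.24%) in total KD. Fitted changes over all genes had a median of -0.00072 on the log2 scale. The same direction was seen in both the 48 and the 96 hr set for 304 of the 305, and in 153 the control and total KD libraries did not overlap, as against 7.47% of all genes. Without the term for library set 10 genes passed, 9 higher and 1 lower, and with time point alone as the term 62 passed. Without the control library of 48 hr 190 genes passed, without the total KD library of 48 hr 181 and without the control library of 96 hr 162.

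Genes of the amino acid response rose together. ATF4 is a transcription factor made when amino acids or tRNA charging run short or when other stress slows translation, and it is known to switch on amino acid transporters, amino acid and one-carbon enzymes, and tRNA synthetases. Of 46 tested genes of the ATF4 list 33 were higher and none was lower, against 1.04% of all genes higher, and the median log2 fold change over the list was 0.48. In 22 of the 33 the control and total KD libraries did not overlap, as against 153 of the 305 called genes and 7.47% of all genes. A further 5 of the 46 passed an unadjusted p of 0.05, which makes 38 of the 46, against 1742 of all 13393 genes. The count was 7 without the term for library set and 19 by DESeq2, which gave no adjusted p for 22 genes of the list. The list was drawn up with earlier results of these libraries known.

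The signalling and stress genes of the list had the largest changes. INHBE, a liver-type activin subunit, rose from 0.5002, 0.424 and 0.405 CPM in the controls to 4.66, 2.65 and 3.23 CPM in total KD (log2 fold change 2.77, SE 0.388, adjusted p = 1.1e-05). CHAC1, which degrades glutathione, had 1.50, 3.13 and 2.02 CPM in the controls and 13.97, 7.94 and 8.32 CPM in total KD (log2 fold change 1.86, SE 0.215). STC2, a secreted stress protein, had 7.90, 8.73 and 5.18 CPM in the controls and 25.7, 26.3 and 17.1 CPM in total KD (log2 fold change 1.71, SE 0.141). In each of these genes every total KD library was above every control.

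DDIT4, an inhibitor of the growth kinase mTORC1, overlapped between the groups. It had 15.4, 6.61 and 1.94 CPM in the controls and 12.4, 19.4 and 6.76 CPM in total KD. Both sets with a shared control gave a rise (log2 ratios 1.55 and 1.78). At 24 hr the sets differed in DDIT4 level. The N-short and N-long libraries had 2.225 and 2.79 CPM beside total KD and 15.6 and 12.8 CPM beside the control. The transcription factors ATF5 (log2 fold change 1.38), ATF3 (1.02) and the ATF4 inhibitor TRIB3 (1.07) also rose. ATF4 itself, which is known to be controlled mainly at translation, had 104, 87.8 and 91.5 CPM in the controls and 125, 114 and 102.1 CPM in total KD (log2 fold change 0.26, SE 0.0537).

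Transporters and enzymes of the list rose as well. SLC7A11, the cystine importer, had 27.1, 39.2 and 40.0 CPM in the controls and 72.1, 74.7 and 72.3 CPM in total KD (log2 fold change 0.93, SE 0.0846, adjusted p = 2.3e-09). PSAT1, of serine synthesis, had 256, 278 and 279 CPM in the controls and 458, 509 and 406 CPM in total KD (log2 fold change 0.69). The other serine and one-carbon enzymes PHGDH (0.46), PSPH (0.31), SHMT2 (0.50), MTHFD2 (0.48) and ALDH1L2 (1.30) rose too. ASNS, asparagine synthetase, did not pass (log2 fold change 1.19, adjusted p = 0.176), but only 69 of its reads in the 6 libraries were on junctions of its name alone. A further 19454 reads lay on junctions that GENCODE 29 also gives to AC079781.5, and with these ASNS had 159.7, 218.1 and 127.1 CPM in the controls and 336.2, 476.1 and 245.7 CPM in total KD, with no overlap between the groups. That sum was computed after the fit had been seen and has no test. DDIT3, the stress factor CHOP, was measured at 0.400 to 0.810 CPM in the controls and 1.36 to 2.98 CPM in total KD with an adjusted p of 0.0687.

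Of 23 tested genes in the tRNA synthetase list, 9 were higher (1.04% of all genes were) and none was lower, and the median log2 fold change was 0.087. These 9 were WARS, AARS, CARS, MARS, SARS, GARS, NARS, YARS and EPRS, which load tRNA with amino acids. AARS, the alanine enzyme, had 429.0, 469.1 and 366.6 CPM in the controls and 530.0, 646.5 and 487.1 CPM in total KD (log2 fold change 0.42, SE 0.0349, adjusted p = 3e-10). WARS, the tryptophan enzyme, had 123.5, 121.1 and 123.1 CPM in the controls and 161.6, 181.3 and 163 CPM in total KD. The largest change among the synthetases was 0.46 on the log2 scale. None of the 13 tested exons of this list or the 19 of the ATF4 list passed the exon test (edgeR). Of all exons 1.33% did. An unadjusted p under 0.05 was found for 7 of the 13 and 2 of the 19, and for 521 of all 6676 exons.

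**Figure D3:**
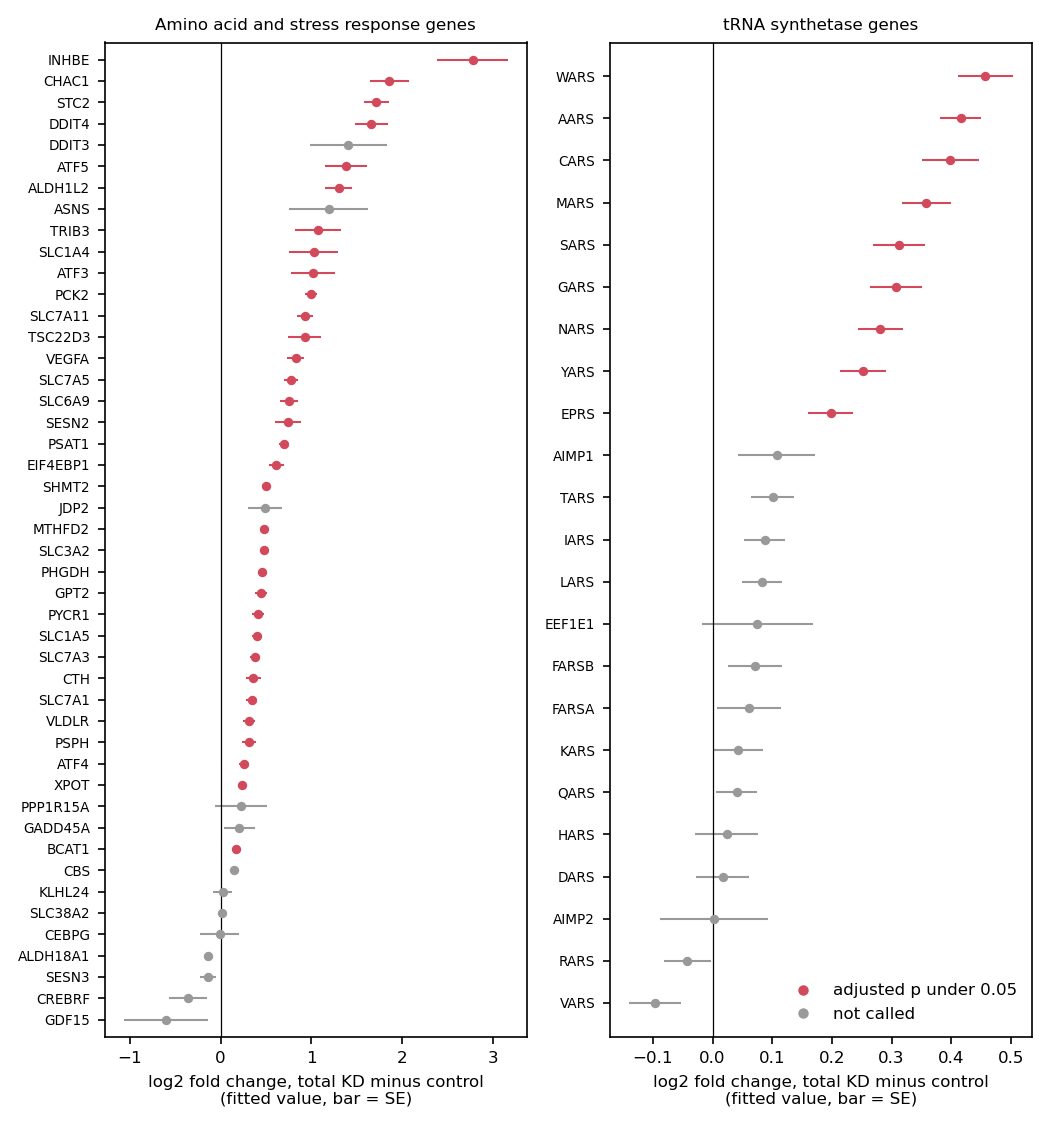
Fitted log2 fold change (total KD minus control) of each tested gene of the ATF4 list and the tRNA synthetase list, with bars for the standard error and red points for an adjusted p under 0.05. Red points lie above 0 only, from BCAT1 and EPRS up to INHBE at 2.77.

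The same genes were set beside the isoform knockdowns of the same fit, a comparison added after the data were seen that shares the total KD libraries with the one above. RBFOX2 was at 77.9 to 90.9 CPM under N-long KD. Its difference in total KD did not pass the threshold (log2 difference -0.24, SE 0.0746, adjusted p = 0.089 in the edgeR fit), which does not make the levels equal. In the 24 hr set that holds both, RBFOX2 had 50.7 CPM in total KD and 79.3 CPM in N-long KD. Against N-long KD, 34 of the 46 ATF4 list genes were higher in total KD and none lower (2.08% of all genes called, 0.993% higher). Against N-short KD 37 of the 46 were higher (3.08% of all genes called, 1.53% higher). STC2 reached 8.84 CPM at most under N-short KD and 11.4 CPM at most under N-long KD, while the lowest total KD library had 17.1 CPM. SLC7A11 reached 43.99 CPM and 42.2 CPM at most in these libraries. In the 24 hr set that holds total KD, the N-short and N-long libraries had 7.67 and 7.41 CPM of STC2 against 25.7 CPM in total KD.

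Of the 6676 exons, 34 differed between total KD and N-long KD (0.509%, 0.21% higher) and 90 between total KD and N-short KD (1.35%). Against N-short KD, the exons of FMNL3, GOLIM4, EPB41, DIAPH1, ECT2, ENAH, CTTN and CLSTN1 shown above were each lower in total KD. Against N-long KD, the exons of FMNL3 (log2 odds ratio -3.24, SE 0.534, adjusted p = 4.1e-04), EPB41 (63 nt, -1.40), ECT2 (-1.02) and ENAH (-1.05) were lower in total KD. The DIAPH1 exon, at 46.8% to 62.8% under N-long KD, and the CLSTN1 exon, at 4.43% to 13.2%, did not pass (log2 odds ratios -0.72, SE 0.274, and -0.47, SE 0.366). The CTTN exon, at 12.9% to 18.3%, did not pass either (-0.69, SE 0.209, adjusted p = 0.26). GOLIM4 had 27.5% to 55.2% under N-long KD (adjusted p = 0.0774).

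**Figure D4:**
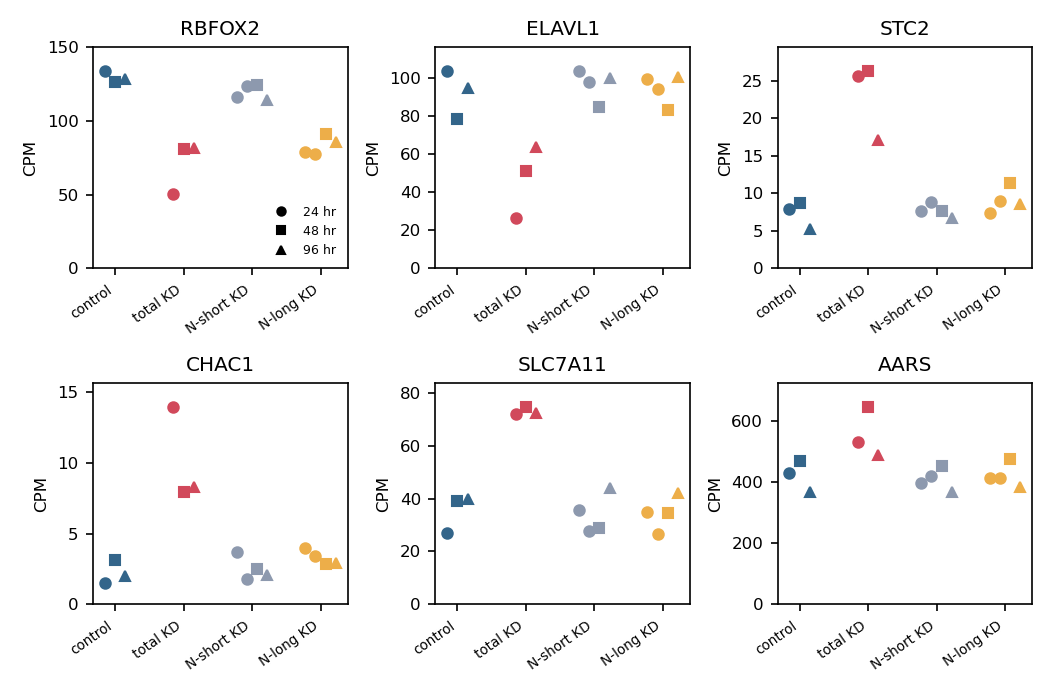
CPM of 6 genes in each of the 14 doxycycline-treated libraries, by knockdown, with circles, squares and triangles for 24, 48 and 96 hr; the vertical axes start at 0. In STC2, CHAC1, SLC7A11 and AARS the 3 total KD libraries are above all others, in ELAVL1 they are below all others, and in RBFOX2 the N-long KD libraries lie beside those of total KD at 48 and 96 hr.

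Median changes of the other stress lists were small. Of 29 genes of the unfolded protein response of the endoplasmic reticulum 1 rose (HERPUD1, of protein removal from that compartment, log2 fold change 0.48) and 2 fell (PDIA4 and HSP90B1). Of 30 p53 targets SESN2, which is also in the ATF4 list, rose and CCNG1 fell. Of 28 sterol genes FDPS fell, and of 34 hypoxia and glycolysis genes VEGFA, also in the ATF4 list, rose and PKM fell. The calls of PDIA4, CCNG1, FDPS and PKM were lost in 4 of the 6 fits that left out 1 library. That of HSP90B1 was lost in 5 of these fits and that of SESN2 without the 96 hr control. Those of HERPUD1 and VEGFA were kept in all 6. Median log2 fold changes over these 4 lists ran from -0.06 to 0.02. Of all genes 1.04% were called higher and 1.24% lower.

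Of the genes that fell, ELAVL1 was among the largest in size. ELAVL1 encodes HuR, which binds AU-rich elements and stabilises RNA. It had 104, 78.5 and 95.0 CPM in the controls and 26.7, 51.45 and 63.7 CPM in total KD (log2 fold change -0.93, SE 0.13, adjusted p = 1.2e-05), beside -0.82 for RBFOX2. Against N-short KD it differed by -1.04 and against N-long KD by -1.005 (SE 0.119 in both, adjusted p = 1.7e-07 and 4.6e-07), with 83.4 to 104 CPM in the 8 isoform knockdown libraries.

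Several genes with larger or similar falls differed strongly in level between library sets. CA3, a carbonic anhydrase of muscle, had 1.70, 11.01 and 5.34 CPM in the controls and 0.364, 1.93 and 1.08 CPM in total KD (log2 fold change -2.23, SE 0.418), and against N-short KD its log2 difference was -0.095 (adjusted p = 0.966). FRZB, a secreted Wnt antagonist, had 2.00, 0.932 and 2.27 CPM in the controls and 0.8005, 0.358 and 0.881 CPM in total KD. CSMD1 ranged from 50.4 to 210.8 CPM in the controls and from 11.6 to 124.4 CPM in total KD, with log2 ratios of -0.76 and -0.96 within the 48 and 96 hr sets. CUBN, an endocytic receptor, had 21.8, 9.15 and 18.05 CPM in the controls and 7.64, 6.30 and 8.81 CPM in total KD. The FRZB call was lost in 9 of 11 alternatives, and that of CA3 in 4.

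Outside the ATF4 list, the largest rises included DDR2, a collagen receptor kinase, with 1.20, 0.847 and 0.810 CPM in the controls and 3.78, 4.22 and 2.94 CPM in total KD (log2 fold change 1.91, SE 0.323). MORC4, a chromatin ATPase, had 9.90, 6.52 and 6.64 CPM in the controls and 14.3, 21.0 and 13.2 CPM in total KD (1.28, SE 0.14). Against N-long KD the difference in MORC4 was 0.33 (SE 0.114, adjusted p = 0.155), where its level was 11.7 to 16.4 CPM. ETNPPL (1.69), TRIM62 (1.15), PEX5L (1.13) and TAC1 (1.08), a neuropeptide precursor, rose as well, all at no more than 13.2 CPM in these libraries. ETNPPL had 1.901 CPM in the 24 hr control and 1.60 CPM in total KD, its fitted change ran from 0.38 to 2.13 over the alternatives, and its call was lost without either 48 hr library or the 96 hr control. The TAC1 call was lost without any 1 of the libraries other than the 24 hr total KD library. The TRIM62 call was lost without the 48 hr total KD library or the 96 hr control, and that of PEX5L without either 48 hr library.

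In the cell cycle list 6 of 48 genes fell (CDC25B, MKI67, ANLN, CENPE, TOP2A and MCM3; 1.24% of all genes were lower) and MCM7 rose, with fitted changes of these 7 between -0.31 and 0.15. The ANLN call was lost without any 1 of the 6 libraries, those of CDC25B and MCM7 without the 48 hr total KD library and that of MKI67 without the 96 hr control. CDC25B, a phosphatase that starts mitosis, had 60.6, 54.1 and 51.25 CPM in the controls and 49.8, 45.1 and 40.7 CPM in total KD. Of the 15 tested pluripotency markers DNMT3B (0.15) and TDGF1 (0.17), a Nodal coreceptor, rose, where 1.04% of all genes did. The TDGF1 call was lost without any 1 control library or the 96 hr total KD library. Of the 6 tested fibroblast and mesenchyme markers COL5A1 (-0.28) and VIM (-0.37) fell, where 1.24% of all genes did. The summed level of that list was 1025 to 1243 CPM in the controls and 916.5 to 1056 CPM in total KD. The part of this list in the other results was not tested.

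**Figure D5:**
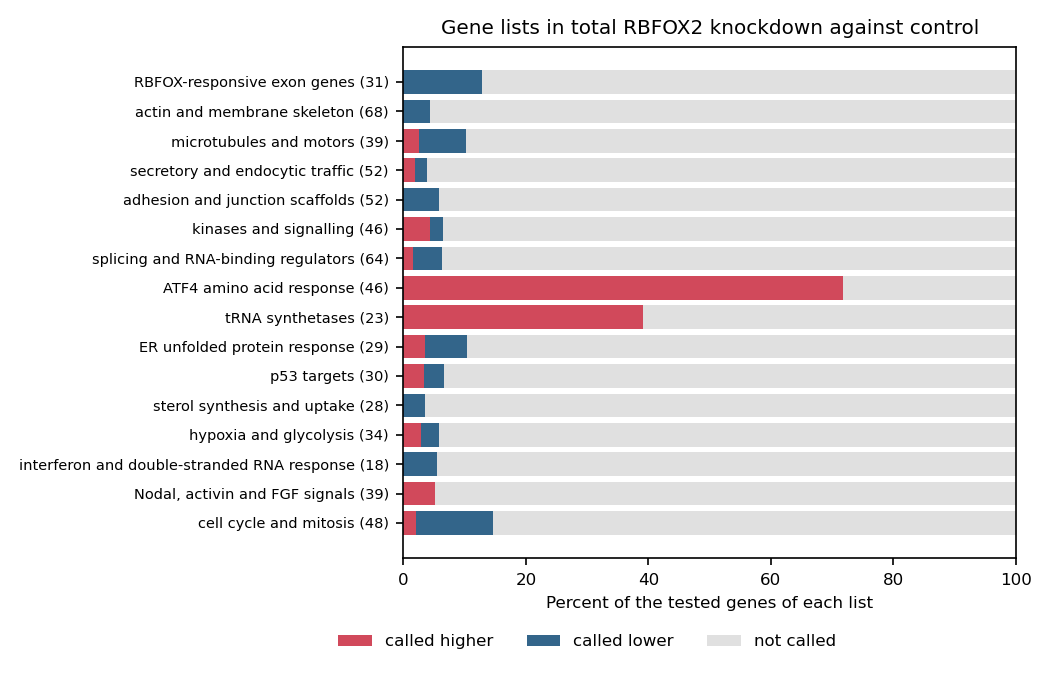
Percent of the tested genes of each list that were called higher (red), called lower (blue) or not called (grey) in total KD, with the number tested in brackets. The ATF4 list has 33 of 46 genes called higher and the tRNA synthetase list 9 of 23; in each of the other lists fewer than 8 genes were called.

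A minority of the genes with a changed exon also changed in level. Of the 74 genes with a changed exon 10 also changed in level (13.5%), as did 122 of the 3744 genes with a tested exon. These 10 are 3.28% of the 305 genes that changed, and 2.28% of all genes changed. NSD2, a histone methyltransferase gene, had its 82-nt exon at 96.7%, 97.4% and 98.02% in the controls and at 81.5%, 56.8% and 78.95% in total KD, and its level fell by 0.42 on the log2 scale. PROM1, the gene of the membrane protein prominin, included a 69-nt exon at 100% in all 3 controls and at 91.9%, 86.9% and 74.2% in total KD, with a level change of -0.33. FN1 (-0.20) and DIAPH1 (-0.13) passed as lower in level, and both level calls were lost without any 1 of the libraries other than the 96 hr total KD library. In the list of RBFOX-responsive exon genes PTBP2 (-0.21), FAT1 (-0.15), NF1 (-0.14) and DIAPH1 fell and none rose, of 31 tested. Of all genes 1.24% were lower. The PTBP2 call was lost without either 24 hr library, the 48 hr total KD library or the 96 hr control. That of NF1 was lost without the 24 hr control, the 48 hr total KD library or either 96 hr library, and that of FAT1 without the 24 hr total KD library or the 96 hr control.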

How the data were processed

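The deposited junction files hold raw read counts per splice junction, 1 table per library, made by the authors with STAR 2.7.1 and SAMtools 1.9 on hg38, per the submitters' processing notes. The authors' event tables give inclusion levels as a fraction, a deposited inclusion difference (control minus knockdown) and the authors' p-value and adjusted p-value per event, per the file headers; 51 per-library columns with no sample here were not used.

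Here, reads on junctions of 1 GENCODE 29 gene name were summed per gene (94.4% to 94.7% of the reads of the 6 libraries). Cassette exons had at most 1000 nt, on average 20 or more inclusion plus skipping reads in a library, and between 2% and 98% inclusion when libraries were pooled. Inclusion reads are the mean of 2 junctions. The quasi-likelihood test of edgeR 4.0.16 (R 4.3.3) was fitted to the 14 libraries with TMM scaling and the filterByExpr filter. Its model held library set and knockdown; exons used inclusion and skipping reads as paired columns. P-values were adjusted by Benjamini-Hochberg over all genes or exons. CPM are TMM-scaled.

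The library set, taken from the time point and library series in the labels, served as the block. Across 8299 genes, deviations of libraries from their group means were correlated for pairs of different knockdowns. The median was 0.784 where a pair shared its set (18 pairs) and -0.274 where it did not (55 pairs). Deviations within a group cancel out, so the value between sets is pushed negative by the calculation itself. The total KD library of 24 hr has no library labelled as a doxycycline-treated control in its set and enters through the isoform knockdowns. The HUES66 WT library of the same series, which may be such a control, was used as an alternative.

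Named were RBFOX2, the 12 largest rises and the 12 largest falls with a mean of at least 1 CPM and the same direction in both sets, and up to 4 called members of each list; for exons the 24 largest, the 6 largest rises and those of the RBFOX list. Other genes and exons in the text were chosen after their values were seen. The members and the gene lists were chosen with earlier results of these data known. On simulated total KD libraries edgeR recovered 83.0% of 200 genes changed by a log2 of 1 (13220 genes) and 67.0% of 200 exons changed by a log2 odds of 2 (6676 exons). It also called 18 unchanged genes and 7 unchanged exons. The simulated libraries had no difference between library sets, and the changed exons were drawn from those of intermediate inclusion. These shares therefore do not give the power in the data. DESeq2 1.42.0 and limma 3.58.1 were alternatives.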

Additional observations from a re-analysis of the deposited data

Results flagged for a closer look

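An exon event of NUCKS1 moved in opposite directions at 2 times in the authors' deposited tables. The difference, total KD minus control, was 28.3 points at 48 hr and -37.2 points at 96 hr, and it passed the threshold at both times. The difference between the times was not tested, and each time rests on 1 library per group.

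The gene AASS, of lysine breakdown, passed the gene test as lower, but its log2 ratio of total KD to control was -0.34 at 48 hr and 0.050 at 96 hr. The difference between these sets was not tested.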

How the results depend on the processing

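The fit without the replicate block, that is without the library set term, gave 10 genes, 15 exons (all lower) and 7 higher genes of the ATF4 list. With time point alone 62 genes passed, and with the HUES66 wild-type library as a control 549 genes. DESeq2 gave 19 higher ATF4 list genes and no adjusted p for 22 genes of that list; limma gave 14 exons, all lower. Leaving out 1 of the 6 libraries at a time gave 162 to 333 genes, 40 to 97 exons, 32 to 69 lower exons and 25 to 33 higher ATF4 list genes. At an adjusted p under 0.01 the authors' deposited tables held 19, 32 and 20 events at 24, 48 and 96 hr.

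The RBFOX2 call was kept in all 12 alternatives, with log2 fold changes of -0.93 to -0.65 and a highest adjusted p of 0.0345. None of the 58 named genes or 31 named exons changed direction in any alternative that gave a value. Of the genes, 6 kept their call in every alternative that gave them an adjusted p (RBFOX2, INHBE, DDR2, CHAC1, STC2 and WARS), and of the exons 9 (FMNL3, GOLIM4, the 63-nt exon of EPB41, DIAPH1, ARHGAP17, both of FAM126A, ECT2 and MPRIP). For INHBE, DDR2, CHAC1, STC2 and FMNL3 these were 11 of the 12 alternatives. DESeq2 gave a result for 35 of the 58 named genes. Without the block 52 named genes and 17 named exons lost theirs. The fit of control and total KD at 48 and 96 hr alone gave 31 higher ATF4 list genes. Exons with few reads are limited by depth, FMNL3 to 20 to 40 reads per library.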

Other observations

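In 2 exons the junction counts came and went between libraries of the same group. The 97-nt exon of AP2M1, a clathrin adaptor subunit, had 0 inclusion reads in 8 of the 14 libraries and 279 to 446 in the others, with 0 in total KD at 48 and 96 hr and 446 in total KD at 24 hr; it did not pass (adjusted p = 0.927). The 543-nt exon of SEPT7, one of the 89 that passed, had at most 1 inclusion read in 11 of the 14 libraries, and in the 6 libraries compared only the 96 hr control, with 29 inclusion reads, had more.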
